A study of Mus musculus with 18 samples.

Results

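The genes described here encode membrane carriers of amino acids and close relatives, taken from the gene families SLC1, SLC3, SLC6, SLC7, SLC36, SLC38 and SLC43. They are the protein-coding genes of the deposited count table whose symbol is the family prefix followed by a number, without the imprinted Slc38a4. The rule gave 55 genes of 21995 in the table, and 49 of them passed the filter on low counts that left 18352 genes for testing. The 6 that did not pass (Slc3a1, Slc6a5, Slc6a11, Slc7a10, Slc7a14 and Slc7a15) had 32 to 60 counts each over all libraries.

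Bulk RNA-seq was run on mouse embryonic stem cells (ESCs), pluripotent cells that can form every lineage of the embryo. Cells labelled Oct1_cKO, for which the source label also gives KO, were compared with parental cells. Pou2f1 encodes Oct1, a POU-domain protein that regulates transcription through octamer sites in DNA. The groups were cKO and parental cells at day 0, undifferentiated, and at days 2 and 6 of treatment with 1.5 ug/ml retinoic acid on 0.01% gelatin, with 3 libraries in each of the 6 groups. Neither separate cultures or clones for the 3 libraries nor the way the allele was deleted is given by the labels. The p-values therefore rest on a spread between libraries that may be technical.

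Cells take up the essential amino acids through carriers in the plasma membrane, and several of these carriers are exchangers that trade an internal amino acid such as glutamine for an external one such as leucine. The light chains of family SLC7 reach the membrane only when bound to a heavy chain of family SLC3, while the cationic carriers of SLC7 and the sodium-coupled carriers of SLC1, SLC6 and SLC38 work alone or with their own kind. Amino acid supply is read at the lysosome by mTORC1 signalling, and its shortage is read by the kinase GCN2, which raises translation of the transcription factor ATF4. ESCs in culture depend on glutamine, and mouse ESCs also on threonine.

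Pou2f1 RNA was lower in every cKO library than in any parental library of the same day. It had 62.4 to 88.2 in cKO against 124 to 135 CPM in parental libraries at day 0, 58.8 to 60.8 against 97.9 to 106 CPM at day 2 and 36 to 45.3 against 61.1 to 64.9 CPM at day 6. CPM is counts per 1000000 counts of the scaled library size, and libraries held 13694126 to 19296966 counts. Library 3 of the day 0 cKO cells stood apart from the other two, and calls that changed without it, among the 32 transporters refitted in this way, are given with that value. The 9 pluripotency markers summed to 5730 to 6140 CPM in cKO and 4900 to 4950 CPM in parental libraries at day 0. Most of that difference was Pou5f1, which averaged 1520 CPM in cKO and 893 CPM in parental cells. Sox2 averaged 442 CPM in cKO and 456 CPM in parental cells at day 0, and Tdgf1 924 and 927 CPM. At day 2 the 9 markers summed to 1190 to 1250 CPM in cKO and 434 to 451 CPM in parental libraries. The 7 fibroblast markers, which would show feeder cells or stroma, summed to 335 to 347 CPM in cKO and 1090 to 1150 CPM in parental libraries at day 0. At day 6 they summed to 334 to 399 CPM in cKO and 2900 to 3090 CPM in parental libraries. At day 6 the 6 trophoblast markers reached 3260 to 3710 CPM in cKO and 851 to 936 CPM in parental libraries. Most of both sums was the keratins Krt8 and Krt18. Krt8 averaged 1510 CPM in cKO and 416 CPM in parental cells, and Krt18 1570 and 426 CPM. Tfap2c averaged 246 CPM in cKO and 38.8 CPM in parental cells, and Gata3 88.8 and 20 CPM. Cdx2 averaged 9.14 CPM in cKO and 3.2 CPM in parental cells, and Elf5 5.73 and 0.668 CPM. The 6 visceral endoderm markers reached 617 to 726 CPM in cKO and 258 to 292 CPM in parental libraries at day 6. Most of both sums was Cubn, at 545 CPM in cKO and 217 CPM in parental cells. Afp went the other way, at 8.4 CPM in cKO and 11.1 CPM in parental cells. The 6 neural progenitor and neuron markers summed to 39 to 50 CPM in cKO and 319 to 356 CPM in parental libraries at that day. Most of the parental sum was Dcx and Nefl. Dcx averaged 0.769 CPM in cKO and 105 CPM in parental cells, and Nefl 16.1 CPM in cKO and 215 CPM in parental cells. Tubb3 went the other way, at 25.2 CPM in cKO and 9.35 CPM in parental cells. Pax6 averaged 0.2 CPM in cKO and 5.81 CPM in parental cells, Map2 0.801 and 5.03 CPM, and Sox1 0 and 0.0174 CPM. The part of these differences in the transporter results was not tested. In bulk RNA, fewer cells of a type and less RNA per cell cannot be told apart.

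Summed transporter RNA was somewhat lower in cKO than in parental cells before differentiation and higher at both later days. The 55 genes together held 2310 ± 65.0 CPM in cKO and 2550 ± 9.54 CPM in parental cells at day 0 (SD, n = 3 each). They held 2510 ± 49 CPM in cKO and 1760 ± 63.2 CPM in parental cells at day 2, and 3350 ± 100 CPM in cKO and 2080 ± 21.6 CPM in parental cells at day 6 (SD, n = 3 each). The groups did not overlap at any day. The 5 most abundant genes of a group held 51.9% to 65.9% of its sum, led by Slc38a2, Slc6a6, Slc7a3, Slc3a2 and Slc6a8 in cKO cells at day 0 and by Slc38a1, Slc6a6, Slc38a2, Slc6a8 and Slc3a2 in cKO cells at day 6.

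**Figure D1:**
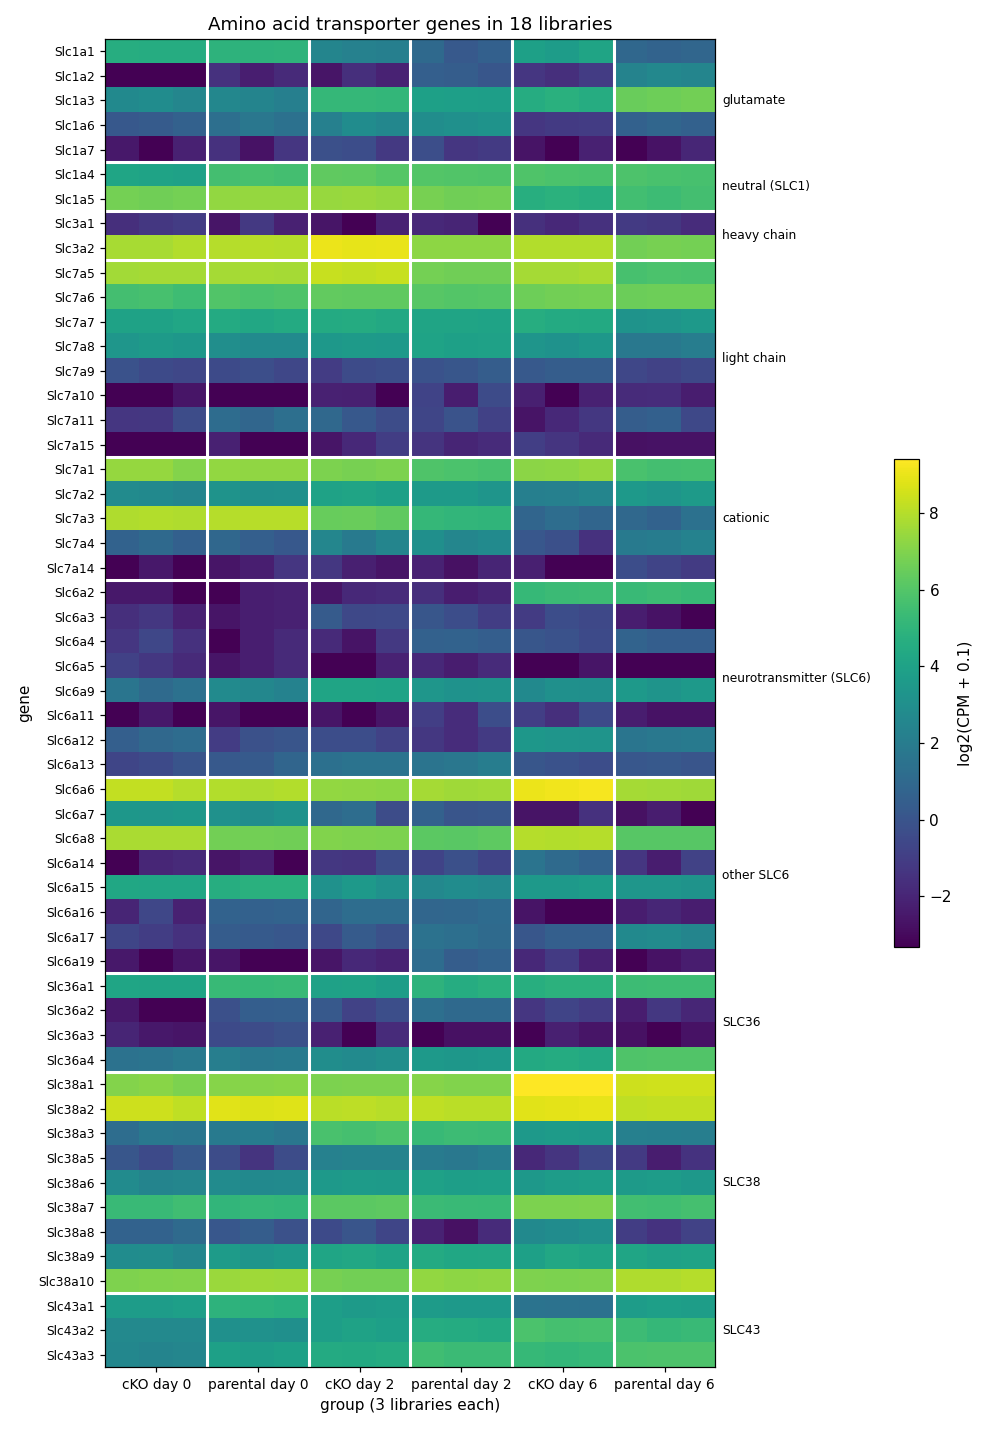
Level of 54 transporter genes in the 18 libraries, as log2(CPM + 0.1), with the libraries in columns by group and the genes in rows by role. Slc3a2 and Slc7a5 are brightest in the cKO day 2 columns, Slc7a3 is bright at day 0 and dark at day 6 in both genotypes, and Slc6a2 is dark before day 6.

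A gene was called changed at a Benjamini-Hochberg adjusted p under 0.05 in edgeR's quasi-likelihood test over all 18352 genes. At day 0, 10 of the 49 tested transporters were called higher in cKO cells and 24 lower, while 26.4% of all tested genes were called higher and 27% lower. Of these, 4 higher and 12 lower genes differed at least 2-fold, as did 6.13% and 6.58% of all genes. At day 2, 21 were called higher and 16 lower, against 33.7% and 33.6% of all genes, and 8 higher and 5 lower genes differed at least 2-fold, as did 6.63% and 13.9% of all genes. At day 6, 20 were called higher and 15 lower, against 36.7% and 37.8% of all genes, and 16 higher and 9 lower genes differed at least 2-fold, as did 15.6% and 20.3% of all genes. The tested transporters had median log2 fold changes of -0.31, 0.16 and 0.27 at days 0, 2 and 6, beside medians of 0, -0.01 and 0 over all genes. The split at day 2 turned under library sizes with no scaling factor, to 15 higher and 20 lower transporters. That scaling moved the median of all genes at day 2 by -0.19 and gave 4263 higher and 8187 lower genes in place of 6187 and 6172. At day 6 that scaling gave 18 higher and 18 lower transporters. Over all genes it gave 5241 higher and 8414 lower there, in place of 6740 and 6940.

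The change with retinoic acid also differed between the genotypes. From day 0 to day 2, 28 transporters were called higher and 14 lower in cKO cells (41% and 35.5% of all genes), and 24 higher and 20 lower in parental cells (43.2% and 37.7%). From day 0 to day 6, 29 were called higher and 12 lower in cKO cells (41.4% and 40.4%), and 21 higher and 22 lower in parental cells (45.3% and 40.2%). At least 2-fold, these counts were 23 higher and 6 lower in cKO cells (23.9% and 15.8% of all genes) and 17 and 11 in parental cells (26.5% and 13.3%) at day 2. At day 6 they were 22 and 9 in cKO cells (26.7% and 24.1%) and 12 and 16 in parental cells (29.5% and 22.4%). The test of the difference between the genotypes' changes called 25 transporters with a more positive change in cKO cells and 5 with a more negative one at day 2 (30.1% and 26.9% of all genes), and 24 and 8 at day 6 (32% and 31.9%). At least 2-fold, these were 15 and 3 at day 2 (9.33% and 13.6%) and 15 and 5 at day 6 (15.7% and 18.7%). These comparisons share the day 0 libraries. Without library 3 of the day 0 cKO cells the day 2 test gave 25 and 4, and the day 6 test 22 and 7.

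**Figure D2:**
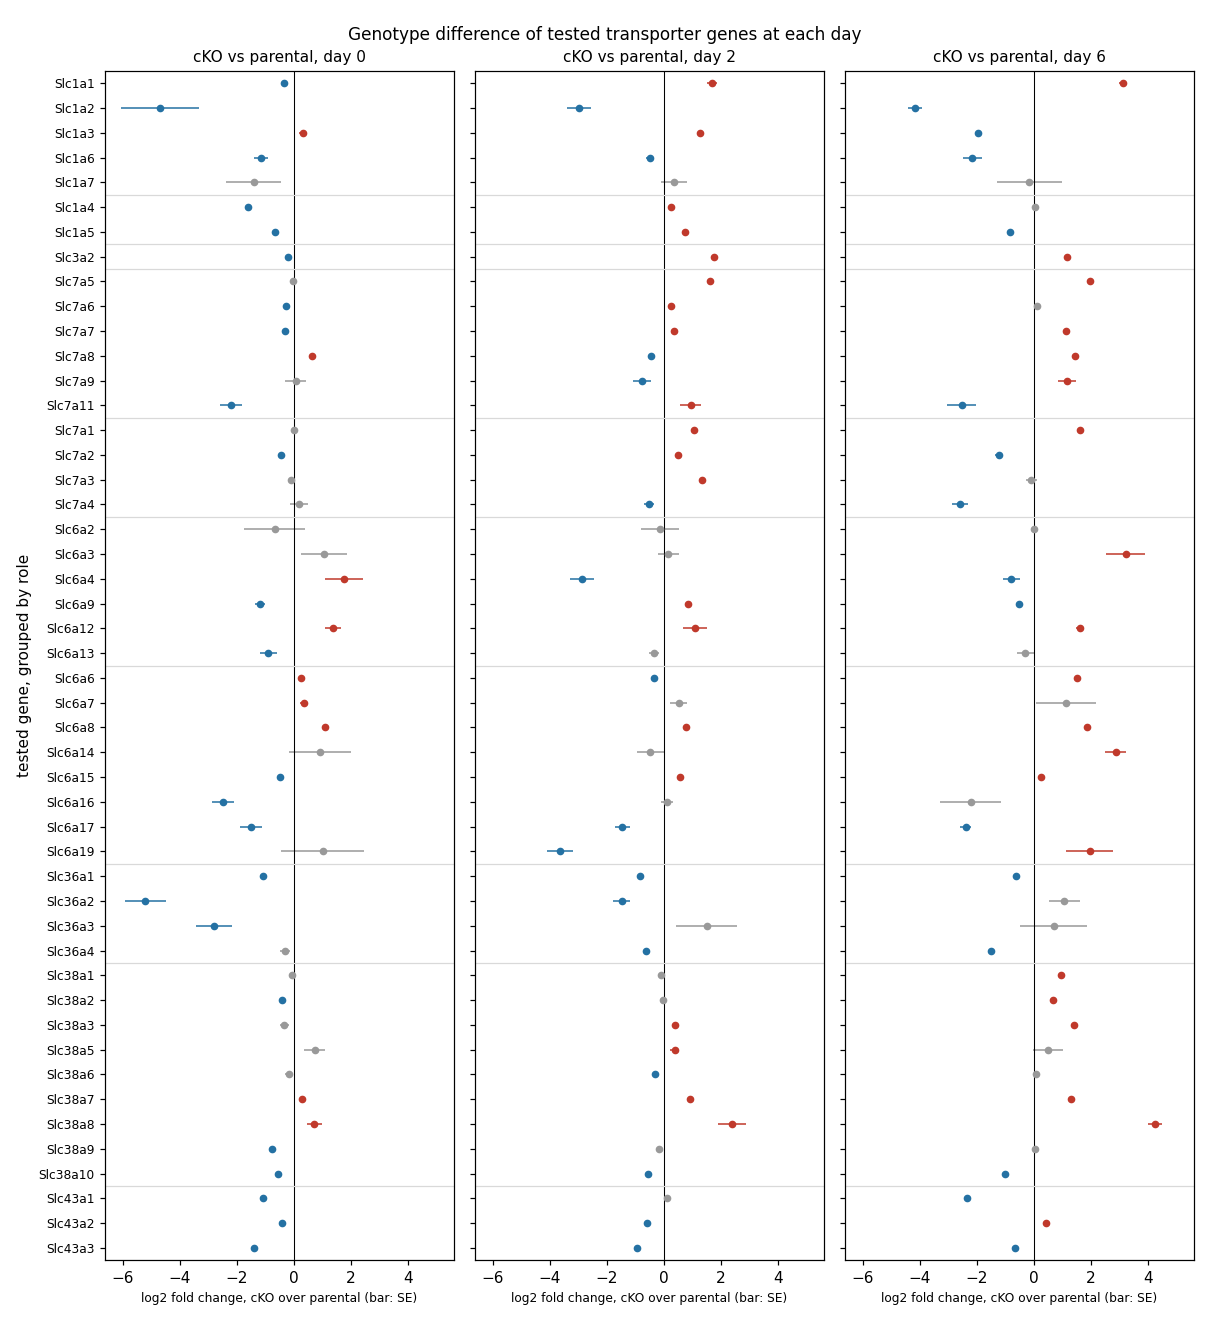
Log2 fold change of cKO over parental cells at days 0, 2 and 6 for 48 tested transporters, grouped by role, with bars of 1 SE; red points were called higher, blue points lower and grey points neither. Slc3a2 lies at -0.19 at day 0, 1.76 at day 2 and 1.17 at day 6, and the fitted values of Slc1a2 and Slc36a2 at day 0 rest on near-zero counts in cKO cells and are no measure of size.

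Slc3a2 encodes the heavy chain that carries most of the SLC7 light chains to the plasma membrane (chr19:8706882-8723369, minus strand, GRCm38). It had 214, 214 and 243 CPM in cKO cells at day 0, 533, 492 and 505 CPM at day 2 and 243, 243 and 247 CPM at day 6. In parental cells it had 251, 261 and 255 CPM at day 0, 154, 149 and 149 CPM at day 2 and 105, 111 and 109 CPM at day 6. All cKO libraries were below all parental libraries at day 0 and above them at days 2 and 6. On the log2 scale the cKO over parental fold change was -0.19 ± 0.05 (SE; adjusted p = 0.000816) before treatment. It was 1.76 ± 0.05 after 2 days (adjusted p = 1.26e-27) and 1.17 ± 0.05 after 6 days (adjusted p = 5.13e-23). From day 0 to day 2 the gene rose in cKO cells (log2 fold change 1.19 ± 0.05) and fell in parental cells (-0.76 ± 0.05), and the difference of these changes was 1.95 ± 0.07 (adjusted p = 7.14e-24).

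Slc7a5 encodes the light chain that exchanges glutamine for leucine and other large neutral amino acids (chr8:121881150-121907694, minus strand). It had 203, 205 and 210 CPM in cKO cells at day 0, 328, 298 and 324 CPM at day 2 and 205, 207 and 222 CPM at day 6. Parental cells had 210, 212 and 207 CPM at day 0, 109, 101 and 98.8 CPM at day 2 and 52.2, 56.1 and 54.7 CPM at day 6. The genotypes overlapped at day 0 and stood well apart at days 2 and 6. Its day 0 log2 fold change was -0.03 ± 0.05 (adjusted p = 0.687). It was 1.62 ± 0.05 after 2 days (adjusted p = 2.19e-26) and 1.96 ± 0.05 after 6 days (adjusted p = 1.86e-29). From day 0 to day 6 it fell by 1.95 ± 0.05 on the log2 scale in parental cells, while the cKO value of 0.03 ± 0.05 did not pass the test (adjusted p = 0.508). The changes differed by 1.98 ± 0.07 (adjusted p = 1.5e-24).

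The other light chains that use Slc3a2 were less abundant per kb of exon at day 0 in both genotypes. Slc7a6, which exchanges cationic for neutral amino acids, had 48.9, 52.1 and 44.3 CPM in cKO cells at day 0, 80.2, 78.5 and 78.2 CPM at day 2 and 96.3, 105 and 106 CPM at day 6. Parental cells had 62.0, 55.0 and 60.0 CPM at day 0, 67.9, 63.6 and 65.7 CPM at day 2 and 93.1, 96.3 and 95.6 CPM at day 6. It rose by day 6 in both genotypes, and its cKO over parental log2 fold change was -0.29 ± 0.06 at first, 0.26 ± 0.06 after 2 days (adjusted p = 0.26 with library sizes alone) and 0.11 ± 0.05 at day 6 (adjusted p = 0.0699). The day 6 value was called higher at an adjusted p of 0.00611 under DESeq2, 0.00434 when edgeR took the size factors of DESeq2, 0.00923 when low counts were kept and 0.0272 in a fit of the 6 day 6 libraries. It was also called in 5 of the 6 fits that left out a day 6 library, while library sizes alone gave -0.10 (adjusted p = 0.0977).

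Slc7a7, a light chain with the same kind of exchange, had 16.2, 16.2 and 18.6 CPM in cKO cells at day 0, 22.1, 22.3 and 20.6 CPM at day 2 and 24.1, 21.6 and 21.5 CPM at day 6. Parental cells had 21.8, 19.5 and 22 CPM at day 0, 17.1, 17 and 16.4 CPM at day 2 and 9.35, 9.76 and 11.5 CPM at day 6. The genotypes did not overlap at any day, and the log2 fold change was -0.30 ± 0.09, 0.36 ± 0.08 (adjusted p = 0.061 with library sizes alone) and 1.14 ± 0.09 at days 0, 2 and 6. Its exons overlap those of Oxa1l on the other strand over 232 bases, so without a stated strand setting a part of its reads may belong to that gene.

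Slc7a8, the light chain for a broad range of neutral amino acids, had 10.2, 12.1 and 10.7 CPM in cKO cells at day 0, 10.9, 12.1 and 11.7 CPM at day 2 and 9.88, 8.92 and 10.6 CPM at day 6. Parental cells had 7.69, 6.69 and 6.82 CPM at day 0, 16.5, 14.9 and 15.5 CPM at day 2 and 3.28, 3.37 and 4.13 CPM at day 6. The cKO level did not pass the test against day 0 at either later day (adjusted p = 0.485 and 0.155), although library sizes alone called it higher at day 2 (adjusted p = 0.0336), and the parental level was highest at day 2. The cKO cells were higher at day 0 (0.63 ± 0.11), lower at day 2 (-0.43 ± 0.09) and higher at day 6 (1.45 ± 0.12), with no overlap at any day.

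Slc7a11 encodes the light chain that imports cystine in exchange for glutamate and so feeds glutathione synthesis (chr3:49892526-50443614, minus strand). It was low throughout, with 0.301, 0.314 and 0.690 CPM in cKO cells at day 0, 1.84, 1.05 and 0.669 CPM at day 2 and 0.0595, 0.174 and 0.318 CPM at day 6. Parental cells had 2.13, 1.74 and 2.42 CPM at day 0, 0.543, 0.859 and 0.448 CPM at day 2 and 1.24, 1.40 and 0.574 CPM at day 6. The cKO libraries lay below the parental libraries at days 0 and 6 and overlapped them at day 2. The day 0 log2 fold change was -2.19 ± 0.39 (adjusted p = 1.14e-05). It was 0.95 ± 0.37 after 2 days (adjusted p = 0.0248) and -2.53 ± 0.51 after 6 days (adjusted p = 3.5e-05). The call after 2 days did not hold with DESeq2 (adjusted p = 0.0692) or unscaled library sizes (adjusted p = 0.0704). It was also lost without library 1 of the day 2 cKO cells (adjusted p = 0.317) and without library 1 or 3 of the day 2 parental cells (adjusted p = 0.0819 and 0.105).

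Slc7a9, the light chain of the renal heavy chain Slc3a1, averaged 1.21 ± 0.116 CPM in cKO and 0.530 ± 0.0558 CPM in parental cells at day 6, a log2 fold change of 1.17 ± 0.31, and Slc3a1 itself averaged at most 0.305 CPM in any group. Slc7a10 and Slc7a15 averaged at most 0.415 and 0.299 CPM.

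Per kilobase of merged exon the make-up of the light chains differed between the genotypes. Slc7a5 made up 75.5% ± 0.839, 76.4% ± 1.08 and 64.6% ± 0.589 of the light chain CPM per kb in cKO cells at days 0, 2 and 6, and 73.1% ± 1.39, 54.8% ± 0.820 and 37.2% ± 0.535 in parental cells (SD, n = 3 each). The genotypes did not overlap at days 2 and 6. The summed light chains over Slc3a2, also in CPM per kb, gave a ratio of 0.773 ± 0.0154 in cKO and 1.18 ± 0.0256 in parental cells at day 2, and of 1.27 ± 0.0342 and 1.28 ± 0.0125 at day 6. The merged length takes in rarely used exons, so the size of these ratios is approximate.

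**Figure D3:**
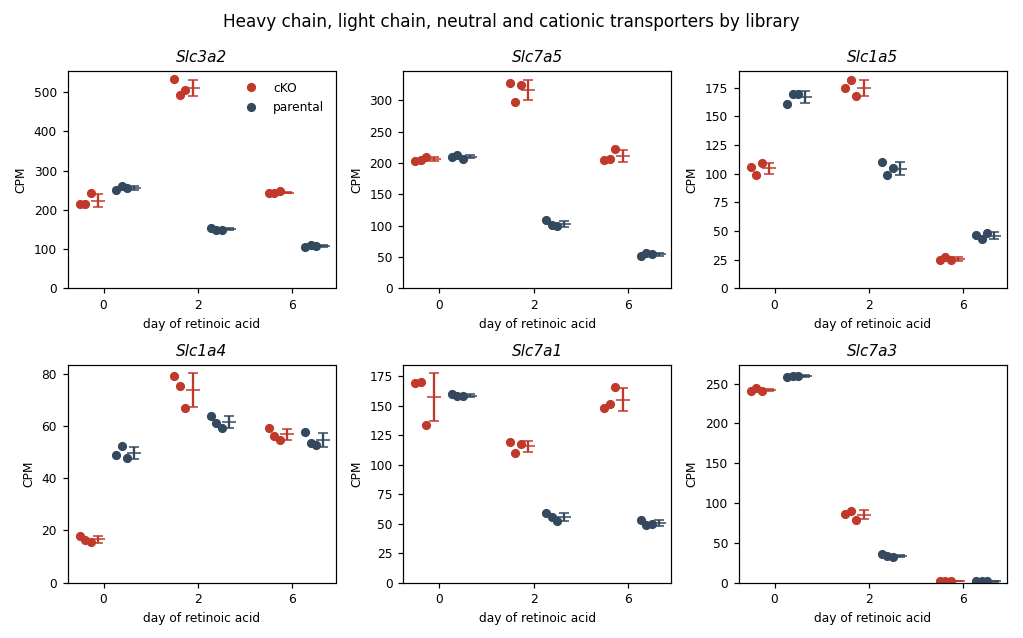
CPM of the heavy chain Slc3a2, the light chain Slc7a5, the neutral exchangers Slc1a5 and Slc1a4 and the cationic carriers Slc7a1 and Slc7a3 at days 0, 2 and 6, with cKO libraries in red left of parental libraries in slate and the mean with SD beside each group. At day 2 cKO libraries sit above all parental libraries in every panel, and at day 6 they remain above in Slc3a2, Slc7a5 and Slc7a1.

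Promoter sequence is shown for the members in which a motif search found a match, because Oct1 binds the octamer and because ATF4 binds a composite element at genes of the amino acid response. The 250 bases before each annotated start were searched on both strands for the octamer ATGCAAAT and for TGATGNAA, a form of that element, in the RefSeq promoters of GRCm38.p6. Of the 55 members, 40 had an entry, with 59 windows, and Slc7a5 had none. The octamer was in 2 of these windows and in 1.6% of all 32851 windows, and TGATGNAA was in 3 of them and in 3.45% of all. A match is a description of the letters, not a site of binding. Matches are in capitals, 5′ to 3′ on the gene's strand, with up to 20 bases on each side. The Slc7a11 stretch, chr3:50443633-50443699 on the minus strand, holds 3 matches, of which the octamer and the second TGATGNAA, both on the other strand, overlap. The Slc6a12 stretch is chr6:121342374-121342421 on the plus strand, and those of Slc7a7 are chr14:54418058-54418105 and chr14:54417918-54417952 on the minus strand, each before a different annotated start.
Slc7a11: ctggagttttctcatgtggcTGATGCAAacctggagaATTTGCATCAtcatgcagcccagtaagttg
Slc6a12: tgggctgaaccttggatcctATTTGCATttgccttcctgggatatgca
Slc7a7, upstream start: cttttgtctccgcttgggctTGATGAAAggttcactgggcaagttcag
Slc7a7, other start: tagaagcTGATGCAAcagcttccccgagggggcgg

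Of the 3 members with a match, Slc7a11, with both motifs, was called lower, higher and lower in cKO cells at days 0, 2 and 6. Slc6a12, with the octamer, was called higher at all 3 days, and Slc7a7, with TGATGNAA, was called lower at day 0 and higher at days 2 and 6. The windows of Slc3a2 and Slc7a1 held no match.

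Both neutral exchangers of family SLC1 were lower in cKO cells at day 0 and higher at day 2. Slc1a5, the main glutamine importer of many dividing cells (chr7:16781340-16798274, plus strand), had 106, 99.1 and 109 CPM in cKO cells at day 0, 175, 182 and 168 CPM at day 2 and 25.0, 27.7 and 25.0 CPM at day 6. Parental cells had 161, 170 and 170 CPM at day 0, 110, 98.7 and 105 CPM at day 2 and 46.9, 42.8 and 48.4 CPM at day 6. The genotypes did not overlap at any day, with cKO cells below at day 0 (-0.67 ± 0.05), above at day 2 (0.74 ± 0.05) and below at day 6 (-0.83 ± 0.06). From day 0 to day 2 the gene rose by 0.74 ± 0.05 in cKO cells and fell by 0.67 ± 0.05 in parental cells on the log2 scale, a difference of 1.41 ± 0.07 (adjusted p = 1.68e-18).

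Slc1a4, an exchanger of alanine, serine, cysteine and threonine (chr11:20302180-20332713, minus strand), had 18, 16.4 and 15.4 CPM in cKO cells at day 0, 79.0, 75.4 and 66.7 CPM at day 2 and 59.1, 56.3 and 54.7 CPM at day 6. Parental cells had 48.9, 52.3 and 47.8 CPM at day 0, 63.9, 61.2 and 59.3 CPM at day 2 and 57.6, 53.5 and 52.6 CPM at day 6. The cKO libraries were below all parental libraries at day 0, above them at day 2 and overlapped them at day 6. The day 0 log2 fold change was -1.59 ± 0.08 (adjusted p = 9.56e-20). It was 0.26 ± 0.06 after 2 days, or 0.07 with library sizes alone (adjusted p = 0.297). After 6 days it was 0.05 ± 0.06 (adjusted p = 0.431), or -0.15 with library sizes alone (adjusted p = 0.0242). The changes to day 2 differed by 1.85 ± 0.10 and those to day 6 by 1.64 ± 0.10.

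Slc1a4 lies on chromosome 11, where RNA was lower in cKO cells as a whole. Over the 1452 tested genes of that chromosome the median log2 fold change was -0.36, -0.43 and -0.42 at days 0, 2 and 6, and 54.8%, 61.6% and 57.2% were called lower. Of the 7 tested transporters there, 6, 5 and 3 were called lower and 1, 1 and 1 higher at days 0, 2 and 6. The other 42 had 9 higher and 18 lower at day 0, 20 higher and 11 lower at day 2, and 19 higher and 12 lower at day 6. Of all tested genes, 26.4% were called higher and 27% lower at day 0. These shares were 33.7% and 33.6% at day 2 and 36.7% and 37.8% at day 6. The part of the chromosome in the level of any single gene was not tested.

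Among the cationic carriers, which bring in arginine, lysine and ornithine, Slc7a1 fell more in parental than in cKO cells (chr5:148327410-148399904, minus strand). It had 169, 170 and 134 CPM in cKO cells at day 0, 119, 110 and 118 CPM at day 2 and 148, 152 and 166 CPM at day 6. Parental cells had 160, 158 and 158 CPM at day 0, 59.1, 56.0 and 52.1 CPM at day 2 and 53.4, 48.8 and 49.5 CPM at day 6. The genotypes overlapped at day 0 and not later. The day 0 log2 fold change was -0.01 ± 0.06 (adjusted p = 0.902), and 0.10 without library 3 of the day 0 cKO cells (adjusted p = 0.0941). It was 1.05 ± 0.07 after 2 days (adjusted p = 3.72e-14) and 1.62 ± 0.07 after 6 days (adjusted p = 2.78e-19). Against day 0 it fell by 0.44 ± 0.07 at day 2 in cKO cells and by 1.51 ± 0.07 in parental cells on the log2 scale. At day 6 the cKO value of -0.02 ± 0.06 did not pass the test (adjusted p = 0.791), but without library 3 of the day 0 cKO cells it was -0.14 and called lower (adjusted p = 0.00686).

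Slc7a3, the cationic carrier with the most CPM per kb at day 0 (chrX:101079210-101086020, minus strand), had 241, 244 and 241 CPM in cKO cells at day 0, 86.3, 90.6 and 79.2 CPM at day 2 and 1.67, 2.26 and 1.65 CPM at day 6. Parental cells had 258, 260 and 260 CPM at day 0, 35.5, 33.3 and 32.5 CPM at day 2 and 1.84, 1.51 and 2.61 CPM at day 6. Both genotypes lost the RNA, cKO libraries were above all parental libraries at day 2, and the groups overlapped at day 6. The cKO over parental value on the log2 scale was -0.10 ± 0.05 at first (adjusted p = 0.102). It was 1.34 ± 0.06 after 2 days (adjusted p = 4.31e-21) and -0.09 ± 0.19 after 6 days (adjusted p = 0.71). From day 0 to day 6 it changed by -7.01 ± 0.09 in cKO cells and -7.03 ± 0.09 in parental cells on the log2 scale. The interaction at day 2 was 1.44 ± 0.08.

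Slc7a2, which many tissues use for arginine uptake, had 6.84, 6.51 and 5.46 CPM in cKO cells at day 0, 15.8, 17.4 and 14.8 CPM at day 2 and 4.41, 4.57 and 5.47 CPM at day 6. Parental cells had 9.19, 7.88 and 8.37 CPM at day 0, 12.3, 12 and 9.97 CPM at day 2 and 11.7, 9.86 and 12.1 CPM at day 6. It was lower in cKO cells at days 0 and 6 (-0.44 ± 0.13 and -1.22 ± 0.12) and higher at day 2 (0.49 ± 0.10), with no overlap. At day 6 Slc7a1 made up 93.0% ± 0.563 of the summed CPM per kb of Slc7a1, Slc7a2 and Slc7a3 in cKO cells and 71.5% ± 3.12 in parental cells, and Slc7a2 made up 3.63% ± 0.216 and 20% ± 1.05 (SD, n = 3 each). Slc7a4, a relative with no settled substrate, had 1.01, 0.753 and 0.254 CPM in cKO cells at day 6 and 3.73, 3.94 and 4.86 CPM in parental cells, which did not overlap, a log2 fold change of -2.60 ± 0.28. Slc7a14 averaged at most 0.527 CPM.

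The glutamate carriers take up the excitatory amino acids glutamate and aspartate together with sodium. Slc1a1, the widely expressed one (chr19:28835049-28913960, plus strand), had 24.1, 23.8 and 23.3 CPM in cKO cells at day 0, 5.39, 4.67 and 4.35 CPM at day 2 and 14.8, 13 and 17.2 CPM at day 6. Parental cells had 29.4, 30.3 and 31.2 CPM at day 0, 1.94, 1.06 and 1.40 CPM at day 2 and 1.79, 1.56 and 1.72 CPM at day 6. The groups did not overlap at any day, and all 3 cKO libraries were higher at day 6 than any cKO library at day 2. The log2 fold change was -0.35 ± 0.08 at first, 1.69 ± 0.18 after 2 days (adjusted p = 1.71e-10) and 3.14 ± 0.14 after 6 days (adjusted p = 6.62e-22). The changes from day 0 to day 6 differed by 3.49 ± 0.17 (adjusted p = 1.86e-20).

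Slc1a3, the carrier known from astrocytes and radial glia (chr15:8634124-8710764, minus strand), had 6.54, 7.29 and 5.65 CPM in cKO cells at day 0, 35.7, 35.3 and 34.1 CPM at day 2 and 23.6, 27.3 and 23.3 CPM at day 6. Parental cells had 5.81, 5.34 and 4.40 CPM at day 0, 14.8, 14.4 and 14 CPM at day 2 and 90.9, 96.0 and 102 CPM at day 6. The genotypes overlapped at day 0, cKO cells were above at day 2 (1.28 ± 0.08, adjusted p = 2.58e-17) and below at day 6 (-1.96 ± 0.07, adjusted p = 8.76e-26). The day 0 value of 0.31 ± 0.13 (adjusted p = 0.0462) missed the threshold with unscaled library sizes (adjusted p = 0.0612) and in a fit of the 6 day 0 libraries (adjusted p = 0.0837). It also did so without library 1 or 2 of the day 0 cKO cells (adjusted p = 0.0936 and 0.214) and without library 2 or 3 of the day 0 parental cells (adjusted p = 0.0587 and 0.233). Of 4 astrocyte and radial glia markers, 3 were in the table, and they summed to 0.405 to 0.715 CPM in cKO and 1.19 to 1.20 CPM in parental libraries at day 6. There Gfap averaged 0.444 CPM in cKO and 0.342 CPM in parental cells, Aqp4 0.0405 CPM in cKO cells and 0 in parental cells, and Fabp7 of radial glia 0.0585 CPM in cKO and 0.855 CPM in parental cells. The part of these cell types in the level of Slc1a3 was not tested.

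Slc1a2, the main glutamate carrier of the forebrain, was at 0 counts in all 3 cKO libraries at day 0 and had 4, 2 and 3 counts in the parental libraries, so no fold is given there. It had 0.0634, 0.233 and 0.134 CPM in cKO cells at day 2 and 0.298, 0.232 and 0.381 CPM at day 6, against 1.36, 1.26 and 0.947 CPM in parental cells at day 2 and 5.03, 6.07 and 5.48 CPM at day 6. It was called lower in cKO cells at both days, with a log2 fold change of -4.16 ± 0.26 at day 6. The summed neural markers given above were lower in cKO cells at day 6 as well, although Tubb3 among them was higher. The part of neural cells in the level of Slc1a2 or of any other transporter was not tested. Slc1a6, a carrier known from Purkinje cells, had 0.298, 0.347 and 0.381 CPM in cKO cells at day 6 and 1.44, 1.71 and 1.46 CPM in parental cells, without overlap (-2.15 ± 0.34), and it was also lower at day 0 (-1.16 ± 0.24) and day 2 (-0.49 ± 0.13). Slc1a7, a carrier of the retina, averaged at most 0.598 CPM and was called in no genotype comparison. At day 6 Slc1a1 made up 36.9% ± 4.76 of the glutamate carrier CPM per kb in cKO cells and 1.62% ± 0.173 in parental cells, and Slc1a3 made up 59.0% ± 5.33 and 89.2% ± 0.680 (SD, n = 3 each).

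**Figure D4:**
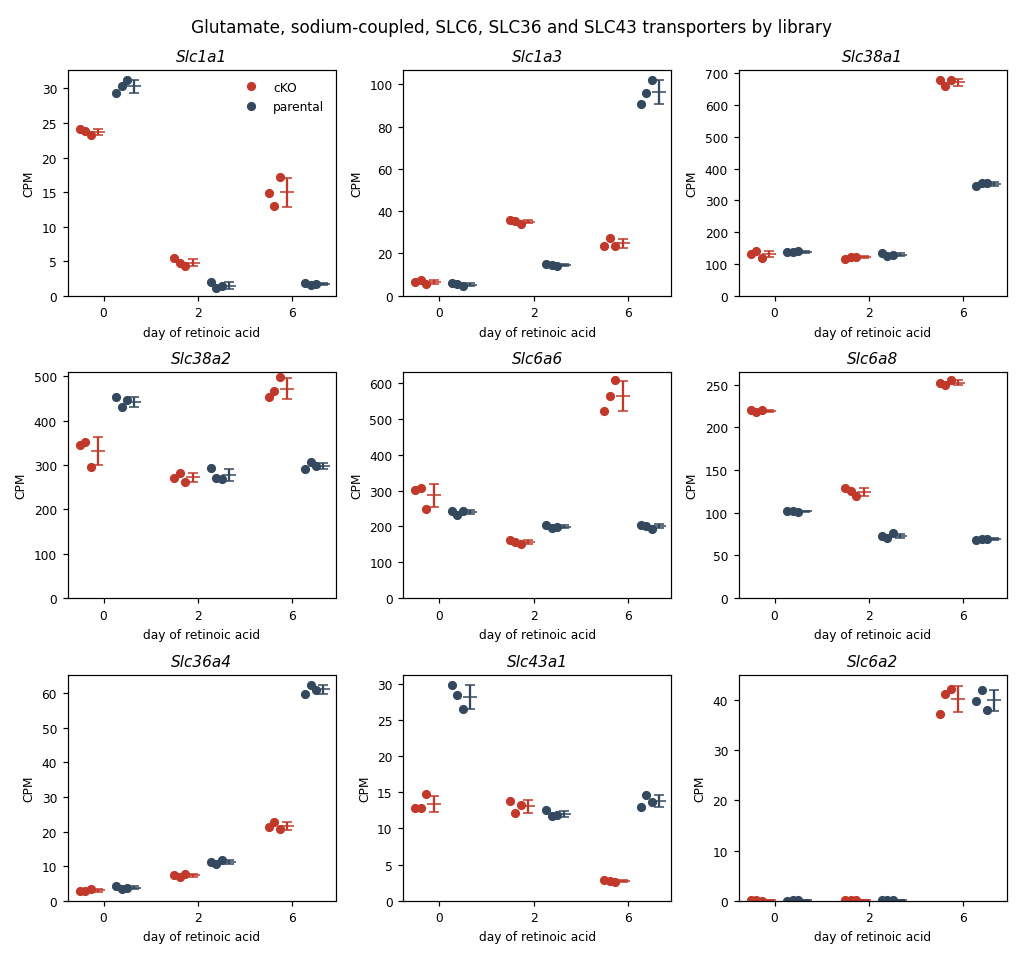
CPM of 9 transporters at days 0, 2 and 6, with cKO libraries in red left of parental libraries in slate and the mean with SD beside each group. Slc1a1 lies at 13 to 17.2 CPM in cKO and 1.56 to 1.79 CPM in parental cells at day 6, Slc1a3 is highest in parental cells at day 6, and Slc6a2 appears at day 6 at about the same level in both.

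The sodium-coupled carriers of SLC38 move glutamine, alanine and related small neutral amino acids. Slc38a1 (chr15:96571418-96642913, minus strand) had 131, 140 and 120 CPM in cKO cells at day 0, 117, 123 and 122 CPM at day 2 and 678, 660 and 679 CPM at day 6. Parental cells had 137, 136 and 140 CPM at day 0, 135, 126 and 127 CPM at day 2 and 344, 354 and 356 CPM at day 6. It rose in both genotypes by day 6, by 2.37 ± 0.05 in cKO cells and 1.35 ± 0.05 in parental cells on the log2 scale. The cKO over parental log2 fold change was 0.94 ± 0.05 at day 6 (adjusted p = 1.23e-20), and -0.08 ± 0.05 and -0.10 ± 0.05 at days 0 and 2 (adjusted p = 0.152 and 0.0665). The day 2 value was called lower at an adjusted p of 0.00991 under DESeq2, 0.0142 when edgeR took the size factors of DESeq2, 0.0302 when low counts were kept and 0.00981 in a fit of the 6 day 2 libraries, and it was -0.29 with library sizes alone (adjusted p = 4.27e-06). It was also called lower without library 2 or 3 of the day 2 parental cells (adjusted p = 0.0255 and 0.0386). The day 0 value was called lower without library 2 of the day 0 cKO cells (adjusted p = 0.0262).

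Slc38a2, whose messenger RNA is a known target of amino acid shortage, had 346, 352 and 295 CPM in cKO cells at day 0, 271, 283 and 262 CPM at day 2 and 452, 467 and 497 CPM at day 6. Parental cells had 452, 430 and 446 CPM at day 0, 293, 270 and 268 CPM at day 2 and 292, 306 and 297 CPM at day 6. The groups overlapped at day 2 and not at days 0 and 6, with log2 fold changes of -0.42 ± 0.05, -0.02 ± 0.05 (adjusted p = 0.694) and 0.66 ± 0.05 at days 0, 2 and 6. Library sizes alone gave -0.22 at day 2 (adjusted p = 0.00088).

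Slc38a7, which exports glutamine from lysosomes, was higher in cKO cells at every day. It had 39.7, 39.9 and 45.6 CPM in cKO against 33.4, 36.1 and 34.4 CPM in parental cells at day 0, and 72.8, 73.8 and 76 CPM in cKO against 41.5, 39.3 and 37.8 CPM in parental cells at day 2. At day 6 it had 117, 118 and 122 CPM in cKO and 46.6, 46 and 50.9 CPM in parental cells. The log2 fold changes at days 0, 2 and 6 were 0.27 ± 0.06, 0.91 ± 0.06 and 1.31 ± 0.06, with no overlap at any day. Slc38a9, the lysosomal arginine sensor that signals to mTORC1, had 7.29, 7.45 and 5.65 CPM in cKO cells at day 0 and 12.5, 9.90 and 11.7 CPM in parental cells, without overlap (-0.75 ± 0.13). It rose in both genotypes by day 2, to 18, 19.7 and 16.6 CPM in cKO cells and 21.9, 18.9 and 19.9 CPM in parental cells, and did not pass the genotype test at days 2 and 6 (adjusted p = 0.119 and 0.601). At day 2 it was called lower with library sizes alone (-0.35, adjusted p = 0.00124) and in a fit of the 6 day 2 libraries (-0.19, adjusted p = 0.031).

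Slc38a3, a glutamine carrier of liver, kidney and brain, had its peak at day 2, at 53.0, 49.7 and 55.5 CPM in cKO cells and 37.8, 42.6 and 40.5 CPM in parental cells. At day 6 it had 11.3, 12.6 and 11.6 CPM in cKO cells and 4.63, 4.36 and 4.33 CPM in parental cells, so cKO cells were above without overlap at both days (0.39 ± 0.06 and 1.41 ± 0.11). Slc38a8 had 6.55, 7.12 and 8.20 CPM in cKO cells at day 6 and 0.398, 0.260 and 0.470 CPM in parental cells, a log2 fold change of 4.25 ± 0.23, the largest increase among the tested transporters at that day. Its level was too low over all libraries for the rule that picks genes to name, and it was chosen after its values were seen. Slc38a10, on chromosome 11, was lower in cKO cells at every day, with 122, 120 and 122 CPM in cKO and 236, 234 and 253 CPM in parental cells at day 6 (-0.99 ± 0.05). Slc38a5 averaged 4.91 ± 0.188 CPM in cKO and 3.77 ± 0.377 CPM in parental cells at its day 2 peak, and Slc38a6 averaged 5.97 to 14.8 CPM over the groups.

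In family SLC6, the carriers of taurine and creatine had the most CPM per kb at day 0. Slc6a8, the creatine carrier (chrX:73673150-73682502, plus strand), had 220, 218 and 220 CPM in cKO cells at day 0, 129, 125 and 120 CPM at day 2 and 252, 249 and 255 CPM at day 6. Parental cells had 102, 102 and 101 CPM at day 0, 73.0, 71.0 and 75.7 CPM at day 2 and 68.0, 69.6 and 69.5 CPM at day 6. It was higher in cKO cells at every day without overlap, by 1.1 ± 0.04 at day 0 (adjusted p = 7.74e-22), 0.77 ± 0.05 at day 2 and 1.87 ± 0.04 at day 6 (adjusted p = 1.24e-30) on the log2 scale. The interaction was -0.34 ± 0.06 at day 2 and 0.76 ± 0.06 at day 6.

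Slc6a6, the taurine carrier, had 302, 307 and 250 CPM in cKO cells at day 0, 163, 156 and 152 CPM at day 2 and 523, 564 and 607 CPM at day 6. Parental cells had 244, 233 and 244 CPM at day 0, 204, 195 and 199 CPM at day 2 and 205, 202 and 194 CPM at day 6. The genotypes did not overlap at any day. Against day 0 the parental level fell by 0.27 ± 0.06 at day 2 on the log2 scale, where library sizes alone gave 0.07, and the cKO level fell by 0.87 ± 0.06 at day 2 and rose by 0.98 ± 0.06 at day 6. The genotype log2 fold changes at days 0, 2 and 6 were 0.25 ± 0.06, -0.34 ± 0.06 and 1.50 ± 0.06 (adjusted p = 1.56e-22).

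Slc6a9, the glycine carrier that also serves non-neuronal cells, had 3.01, 2.04 and 2.57 CPM in cKO cells at day 0, 17, 17.3 and 16.8 CPM at day 2 and 6.49, 8.34 and 7.94 CPM at day 6. Parental cells had 6.75, 5.85 and 4.90 CPM at day 0, 10.3, 8.94 and 9.12 CPM at day 2 and 11.6, 9.45 and 11.3 CPM at day 6. The cKO libraries were below the parental ones at days 0 and 6 and above them at day 2, without overlap, with log2 fold changes of -1.19 ± 0.17, 0.85 ± 0.10 and -0.51 ± 0.11, and the interaction at day 2 was 2.04 ± 0.20 (adjusted p = 2.95e-11). The exons of Slc6a9 overlap those of Ccdc24 on the other strand over 27.8% of its length, and those of B4galt2 over 46 bases. Over all libraries Slc6a9 had 2813 counts, Ccdc24 79 and B4galt2 4744. Other-strand overlaps covered 31.9% of the exon length of Slc1a1 with 4430402I18Rik and 13.3% of that of Slc7a4 with P2rx6. They covered 9.18% for Slc43a2 with Gm45606 and 5.72% for Slc38a10 with Gm11769. 4430402I18Rik, P2rx6, Gm45606 and Gm11769 had 96, 295, 51 and 77 counts. Slc1a1, Slc7a4, Slc43a2 and Slc38a10 had 3672, 1069, 7697 and 49681.

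Slc6a15, a carrier of branched-chain amino acids and proline, fell by day 2 in both genotypes and had 8.43, 11.9 and 8.49 CPM in cKO and 6.06, 7.12 and 6.23 CPM in parental cells at day 2 (0.58 ± 0.12). Slc6a2, the norepinephrine carrier, was at 0 to 0.226 CPM in every library before day 6 and had 37.3, 41.3 and 42.3 CPM in cKO cells and 39.9, 42.1 and 38 CPM in parental cells at day 6, which overlapped (0.01 ± 0.07, adjusted p = 0.904). It was chosen after its values were seen. Slc6a12, the carrier of betaine and GABA shown here for its promoter match, rose by day 6 in both genotypes, to 10.5, 9.84 and 9.66 CPM in cKO and 2.94, 3.32 and 3.60 CPM in parental cells (1.61 ± 0.14). Slc6a7, the proline carrier, averaged 10.5 ± 0.477 CPM in cKO and 8.30 ± 0.673 CPM in parental cells at day 0 and 0.124 and 0.0512 CPM at day 6.

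The other members of SLC6 described here were low. Slc6a17 averaged 1.21 ± 0.220 CPM in cKO and 6.29 ± 0.796 CPM in parental cells at day 6 (-2.38 ± 0.19). Slc6a13 averaged at most 3.39 CPM, Slc6a14 at most 2.16 CPM, Slc6a16 at most 2.04 CPM, Slc6a19 at most 1.63 CPM, Slc6a4 at most 1.42 CPM, Slc6a3 at most 0.775 CPM, Slc6a11 at most 0.436 CPM and Slc6a5 at most 0.318 CPM in any group.

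The SLC36 carriers move neutral amino acids, some of them together with protons and out of lysosomes. Slc36a4, a carrier of proline and tryptophan that does not depend on protons (chr9:15709738-15743361, plus strand), had 2.71, 2.9 and 3.39 CPM in cKO cells at day 0, 7.48, 6.82 and 7.69 CPM at day 2 and 21.3, 22.8 and 20.7 CPM at day 6. Parental cells had 4.25, 3.38 and 3.66 CPM at day 0, 11.3, 10.5 and 11.8 CPM at day 2 and 59.9, 62.4 and 61.1 CPM at day 6. It rose against day 0 in both genotypes, by 2.83 ± 0.11 in cKO cells and 4.02 ± 0.09 in parental cells to day 6 on the log2 scale, a difference of -1.19 ± 0.17 (adjusted p = 1.61e-07). Slc36a1, on chromosome 11, was lower in cKO cells at every day without overlap, with 18, 17.4 and 17.4 CPM in cKO and 37.6, 36.9 and 37.9 CPM in parental cells at day 0 (-1.09 ± 0.08). Slc36a2, also on chromosome 11, had 1, 0 and 0 counts in cKO cells at day 0, so no fold is given, and 0.750, 1.29 and 1.36 CPM in parental cells. Slc36a3, the third member there, averaged at most 0.702 CPM.

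The SLC43 carriers of branched-chain and other large neutral amino acids split at day 6. Slc43a1 (chr2:84838850-84863594, plus strand) had 12.8, 12.8 and 14.7 CPM in cKO cells at day 0, 13.8, 12.1 and 13.2 CPM at day 2 and 2.80, 2.72 and 2.61 CPM at day 6. Parental cells had 29.8, 28.4 and 26.5 CPM at day 0, 12.5, 11.7 and 11.9 CPM at day 2 and 13, 14.6 and 13.7 CPM at day 6. The genotypes overlapped at day 2, and cKO cells were lower at day 0 (-1.07 ± 0.08) and day 6 (-2.34 ± 0.12, adjusted p = 2.39e-20). Slc43a2, on chromosome 11, had 55.0, 50.5 and 51.9 CPM in cKO and 42.0, 35.7 and 39.6 CPM in parental cells at day 6 (0.42 ± 0.06), after lower values at days 0 and 2 (-0.40 ± 0.12 and -0.60 ± 0.08). Slc43a3, known as a carrier of purine bases, was lower in cKO cells at every day, with 5.79, 5.26 and 5.65 CPM in cKO and 14.8, 13.7 and 14.9 CPM in parental cells at day 0 (-1.38 ± 0.10). It rose in both genotypes by day 6, to 37.4, 34.0 and 37.1 CPM in cKO and 55.3, 58.6 and 58.6 CPM in parental cells.

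Genes of the amino acid response, which ATF4 and its partners drive when amino acids run short, were counted beside the transporters. The list also holds Atf4 itself and Eif2ak4, the gene of the kinase GCN2. Of the 27 listed genes, all tested, 7 were called higher and 14 lower in cKO cells at day 0 (26.4% and 27% of all genes). Their median log2 fold change was -0.29. At day 2, 20 were higher and 1 lower (median 0.78), beside 33.7% and 33.6% of all genes, and at day 6, 13 were higher and 10 lower (median 0.18), beside 36.7% and 37.8%. Atf4 averaged 414 ± 16.8 CPM in cKO and 151 ± 3.90 CPM in parental cells at day 2 (1.45 ± 0.05, adjusted p = 3.56e-25). Ddit3, the stress-induced partner of C/EBP proteins, averaged 139 ± 1.88 CPM in cKO and 18.5 ± 1.20 CPM in parental cells at day 2 (2.91 ± 0.06). Asns, which makes asparagine, averaged 402 ± 5.97 CPM in cKO and 170 ± 1.23 CPM in parental cells (1.24) at that day. It had fallen in both genotypes from day 0, where it averaged 872 CPM in cKO and 805 CPM in parental cells. The log2 change from day 0 to day 2 was -1.12 in cKO and -2.24 in parental cells. The member that was lower at day 2 was Stc2, a secreted glycoprotein (-0.50). At day 0 Pycr1 of proline synthesis (-1.53) and Psat1 of serine synthesis (-1.07) were lower in cKO cells. Stc2 and Pycr1 lie on chromosome 11, where RNA was lower in cKO cells as a whole, and Psat1 lies on chromosome 19. The part of chromosome 11 in the levels of Stc2 and Pycr1 was not tested.

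The same shares of all genes, 26.4% higher and 27% lower at day 0, 33.7% and 33.6% at day 2 and 36.7% and 37.8% at day 6, stand beside the counts of the next lists. The first held 16 genes of glutathione synthesis and use and of related antioxidant defence. Of these, 6 were called higher and 9 lower in cKO cells at day 0 (median -0.19). At day 2, 12 were higher and 2 lower (median 0.58), and at day 6, 11 were higher and 4 lower (median 0.47). Gclc, the catalytic subunit of the first enzyme, averaged 195 ± 3.51 CPM in cKO and 112 ± 2.12 CPM in parental cells at day 2 (0.80). Hmox1, which breaks down heme, averaged 483 ± 29.2 CPM in cKO and 101 ± 2.38 CPM in parental cells at day 6 (2.26). Of 33 genes of lysosomal amino acid sensing, 9 were called higher and 14 lower at day 0 (median -0.09), 13 higher and 9 lower at day 2 (median 0.09) and 11 higher and 15 lower at day 6 (median -0.06). Among them Rragb, a Rag GTPase of mTORC1 recruitment, averaged 0.902 ± 0.0668 CPM in cKO and 13.1 ± 1.01 CPM in parental cells at day 6 (-3.84). Castor1, a cytosolic arginine sensor, averaged 24.8 ± 1.88 CPM in cKO and 4.66 ± 0.428 CPM in parental cells (2.41). Neither Rragb nor Castor1 was picked by a rule, and both lie far from the day 6 median of their list.

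Of 14 tested amino acid carriers of other families, 4 were higher and 3 lower in cKO cells at day 0 (26.4% and 27% of all genes), 6 and 4 at day 2 (33.7% and 33.6%) and 8 and 2 at day 6 (36.7% and 37.8%). Slc16a10, a carrier of aromatic amino acids, averaged 2.08 ± 0.410 CPM in cKO and 5.33 ± 0.911 CPM in parental cells at day 0 (-1.37), and 19.5 ± 1.04 CPM in cKO and 5.22 ± 0.560 CPM in parental cells at day 6 (1.90). Ctns, which exports cystine from lysosomes, averaged 166 ± 5.41 CPM in cKO and 99.2 ± 6.98 CPM in parental cells at day 6 (0.74), after lower levels in cKO cells at days 0 and 2 (-0.78 and -0.79).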

How the data were processed

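Trypsin harvest, RNA extraction and standard Illumina library preparation are described in the labels' protocols. The authors deposited raw read counts per gene, whole numbers that were not normalized. The submitters' processing notes name Novoalign, DESeq2 1.10.0 and the builds mm10 and GRCm38, while no source used here names the counting tool, the annotation or the strand setting. Reads of paralogs and of overlapping genes may therefore be split or shared.

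Counts of all 18 libraries were fitted together with edgeR 4.0.16 in R 4.3.3, with a mean per group, TMM scaling and the quasi-likelihood test, after the default filter on low counts (minimum count 10, total 15). P-values were adjusted by Benjamini-Hochberg over the 18352 genes tested, and an adjusted p under 0.05 was called. The SE of a log2 fold change is its size over the square root of F. Coordinates and merged exon lengths are from GENCODE M21 on GRCm38, and promoters from RefSeq on GRCm38.p6. CPM per kb divides by the merged exon length. A level of 3 counts in a library was taken as the floor. The text gives no fold between the genotypes where all libraries of either group are at or under it. Counting precision is set by 13694126 to 19296966 counts a library.

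The members and the gene lists were chosen with earlier results of these data known. Values by library, for some members not at every day, are given for 21 members of central role, except Slc3a1, which has only its highest group mean. They are also given, for each comparison, for up to 5 called members with the largest increase and 5 with the largest decrease. These had a log2 CPM that averaged 1 or more and groups that did not overlap, a condition left out for interactions. The others are summarised. Genes named from the other pathway lists were picked by no stated rule. The alternatives were DESeq2 size factors within edgeR, library sizes alone, keeping low counts, DESeq2 1.42.0, fitting each comparison's own libraries, requiring a fold of at least 2, members outside chromosome 11, and leaving out each library in turn. The scripts were tested on simulated data. Counts and sums over the members include 1 member whose own values are not reported here.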

Additional observations from a re-analysis of the deposited data

Results flagged for a closer look

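The change of the transporters with retinoic acid differed between the genotypes by the interaction test of edgeR. At day 2, 25 transporters had a more positive change in cKO than in parental cells and 5 a more negative one, beside 30.1% and 26.9% of all genes. With library sizes alone the counts were 23 and 10. The difference of the log2 changes, cKO minus parental, was 2.04 for Slc1a1, 2.04 for Slc6a9, 1.95 for Slc3a2, 1.85 for Slc1a4 and 1.64 for Slc7a5. It was -1.07 for Slc7a8, -0.59 for Slc6a6 and -0.34 for Slc6a8.

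At day 6, 24 transporters had a more positive change in cKO cells and 8 a more negative one, beside 32% and 31.9% of all genes. The difference was 3.49 for Slc1a1, 1.98 for Slc7a5, 1.74 for Slc38a3, 1.64 for Slc1a4 and 1.63 for Slc7a1. It was -2.79 for Slc7a4, -2.27 for Slc1a3, -1.28 for Slc43a1, -1.19 for Slc36a4 and -0.98 for Slc1a6. The value of Slc1a6 had an adjusted p of 0.0484, and 13 alternatives ended its call, among them the fit without library 3 of the day 0 cKO cells (-0.85, adjusted p = 0.121).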

How the results depend on the processing

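Of 3437 recomputed values for 32 transporters, 3268 kept their direction and side of the threshold, 83 lost a call, 47 gained one and 39 changed sign, 33 of these with no call either way. No paired analysis was possible because the labels give no replicate numbers. A fold of at least 2 left 4 higher and 12 lower transporters in cKO over parental cells at day 0, 8 and 5 at day 2, and 9 lower at day 6. It left 11 lower at day 2 and 12 higher at day 6 against day 0 in parental cells, 6 lower at day 2 in cKO cells, and 15 higher with 3 lower at day 2 and 15 higher with 5 lower at day 6 in the interaction. Library sizes alone gave 10 lower in the day 2 interaction. That scaling moved the median of all genes by 0.34 for parental cells at day 2 and gave 10130 higher and 4589 lower genes there, in place of 7924 and 6913, with 5241 and 8414 in place of 6740 and 6940 for cKO over parental cells at day 6, and 4094 and 6317 in place of 5526 and 4937 for the day 2 interaction. The cause of each change was not tested.

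With library sizes alone the log2 value changed sign for cKO over parental cells to -0.151 in Slc1a4, -0.099 in Slc7a6 and -0.148 in Slc38a9 at day 6 and -0.084 in Slc43a1 at day 2. It changed to 0.067 in Slc6a6, 0.022 in Slc7a7, 0.245 in Slc38a1 and 0.071 in Slc38a10 for parental cells at day 2, to 0.05 in Slc38a1 and 0.11 in Slc43a1 for cKO cells at day 2, and to -0.178 in the day 6 interaction of Slc7a3. At day 0, Slc7a1 became 0.019 with DESeq2, 0.019 with its size factors and 0.005 with no filter, and Slc7a5 became 0.004 with DESeq2 and 0.006 with its size factors. For cKO cells at day 6, Slc7a5 became -0.001 with those size factors and -0.016 with no filter, and the day 6 interaction of Slc1a2 became -0.393 with DESeq2.

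Leaving out single libraries gave -0.068 to 0.096 for Slc7a1 in cKO over parental cells at day 0, and -0.211 to 0.193 for Slc7a3 and -0.001 to 0.15 for Slc38a9 at day 6. For cKO cells at day 6 it gave -0.141 to 0.039 for Slc7a1 and -0.017 to 0.037 for Slc7a5, and for cKO cells at day 2 -0.102 to 0.013 for Slc43a1. The interaction ran from -0.14 to 0.265 for Slc7a3 and from -0.949 to 0.189 for Slc7a11 at day 6, and from -0.085 to 0.038 for Slc38a1 and -0.093 to 0.009 for Slc38a10 at day 2.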
